A study of Mus musculus with 5 samples.

Results

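The BMP and TGF-beta pathway was followed through 48 genes in RNA from dissected bladder urothelium, the epithelium that lines the bladder. The genes were chosen by symbol as ligands, receptors, Smad proteins, inhibitors, latent TGF-beta binding proteins and target genes, and all 48 were present among the 24970 genes counted. Each animal gave 1 library. The 2 wild types (WT 1 and WT 2) were of strain C57Bl/6, the 3 knockouts (KO 1, KO 2 and KO 3) had the genotype Krt5CreERT2;Ncstnflox/flox, and all 5 mice were 10 weeks old. In the knockouts an inducible Cre recombinase is made under the control of Krt5, a keratin gene of basal epithelial cells, and removes floxed Ncstn. Ncstn encodes nicastrin, a subunit of the gamma-secretase protease that cleaves Notch receptors. By this design the deletion is limited to cells that have expressed Krt5 and their progeny, so fibroblasts, vessels and immune cells of the dissected layer keep the gene. How and when Cre was induced is not stated in the labels, and no strain other than the genotype is labelled for the knockouts. Loss of Ncstn, strain background and the Cre itself therefore cannot be told apart in any difference below.

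BMPs, activins and TGF-betas are secreted dimers that bring together a type I and a type II receptor kinase on the cell surface. The type I receptor phosphorylates receptor Smads: Smad1, Smad5 and Smad9 after BMPs, Smad2 and Smad3 after TGF-betas and activins. These join Smad4 and enter the nucleus, where BMP signals typically switch on the Id genes and TGF-beta signals switch on matrix genes. In the bladder, BMP and TGF-beta signals pass between the stroma and the epithelium and are known for their part in urothelial differentiation and repair.

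Reads assigned to genes numbered 12608836 to 27188499 per library. The 48 pathway genes took 0.470% and 0.464% of these reads in the wild types and 0.409% to 0.440% in the knockouts. Values are given as CPM (counts divided by library totals that were adjusted with edgeR's TMM factors), and where a gene is given library by library the order is always WT 1, WT 2 and KO 1, KO 2, KO 3. Rn45s, a ribosomal precursor, accounted for 7.84% and 3.23% of the wild-type gene counts against 0.608% to 1.53% of the knockout counts. Ncstn, the targeted gene, stood at 144 and 130 CPM in the wild types and at 114, 117 and 123 CPM in the knockouts, lower in every knockout but not past the test (edgeR adjusted p = 0.133). These counts cover the whole gene and all cells, so they do not check the deletion.

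The dissected layer held epithelium and stroma. All 18 urothelial markers passed the low-count filter, and their summed level was 16069 and 18167 CPM in the wild types and 22233 to 24819 CPM in the knockouts. The 16 fibroblast markers summed to 16395 and 14054 CPM in the wild types and to 7894 to 9845 CPM in the knockouts, a 1.67-fold lower mean. Of these markers 13 fell and 1 rose in the edgeR quasi-likelihood test, and 7 fell without WT 1. The 14 endothelial markers summed to 805 to 839 CPM in the wild types and 606 to 728 CPM in the knockouts, and 6 fell (3 without WT 1) and 1 rose, the rise being lost without WT 1, WT 2, KO 2 or KO 3. Smooth muscle markers (524 to 628 CPM in wild types, 486 to 615 CPM in knockouts) and macrophage markers (311 to 336 and 224 to 351 CPM) overlapped between the genotypes, and lymphocyte markers stayed under 20 CPM in sum. The list for Schwann cells and nerve summed to 529 and 603 CPM in the wild types and 1146 to 1264 CPM in the knockouts, most of it from the ubiquitin hydrolase gene Uchl1 (mean of 481 CPM in wild types and 1058 CPM in knockouts), while the glial gene Sox10 had a mean of 1.06 CPM in the wild types and 0.996 CPM in the knockouts. Of its 7 tested genes 3 rose and none fell (1 rose without WT 1 or WT 2): Uchl1, the myelin gene Mbp (1.87-fold, edgeR adjusted p = 0.0115) and the neurotrophin receptor gene Ngfr (3.09-fold, edgeR adjusted p = 0.0126). Many pathway genes below are active in fibroblasts or vessels as well as in epithelium. In bulk tissue, fewer cells of a type and less RNA per cell cannot be told apart, and the part of these shifts in the pathway results was not tested.

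**Figure D1:**
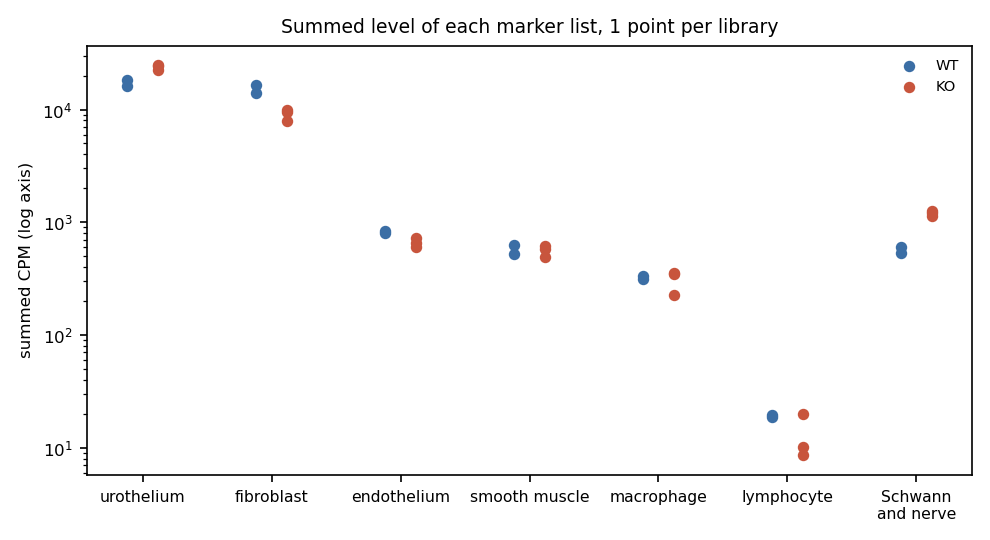
Summed CPM (log axis) of 7 cell type marker lists, with 1 point per library, blue for wild types and red for knockouts. The fibroblast and endothelial sums of all 3 knockouts lie below both wild types, and the urothelial sums lie above them.

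Of the 48 pathway genes, 45 passed the low-count filter. Among these, 2 rose and 10 fell in the knockouts in the edgeR quasi-likelihood test (Benjamini-Hochberg adjusted p under 0.05 over all 14779 genes tested), and 33 did not pass. Over all genes tested 19.7% passed, 9.64% upward and 10.0% downward, against 26.7% of the pathway genes, 4.44% upward and 22.2% downward. The genes that rose encode the ligands BMP3 and TGF-beta 2. Those that fell were the ligand genes Bmp4, Bmp5 and Tgfb3, the receptor genes Acvr1 and Eng, the Smad gene Smad5, the inhibitor genes Skil and Bambi, and the target genes Id3 and Tgfbi. The largest of these 12 changes was that of Bambi, 2.66-fold lower, and the other 11 lay between 1.27-fold and 1.68-fold. The median log2 fold change was -0.17 over the pathway genes and 0.01 over all genes tested, and 32 of the 45 had a negative value. In 26 of the 45 (57.8%) the knockout and wild-type values did not overlap, against 51.0% of all genes tested. The counts depended on single libraries. Without KO 1 the falls of Smad5, Id3 and Tgfbi no longer passed. Without WT 1, 4 fell and 1 rose, without WT 2, 5 fell and 1 rose, and without KO 2, 8 fell and 1 rose.

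**Figure D2:**
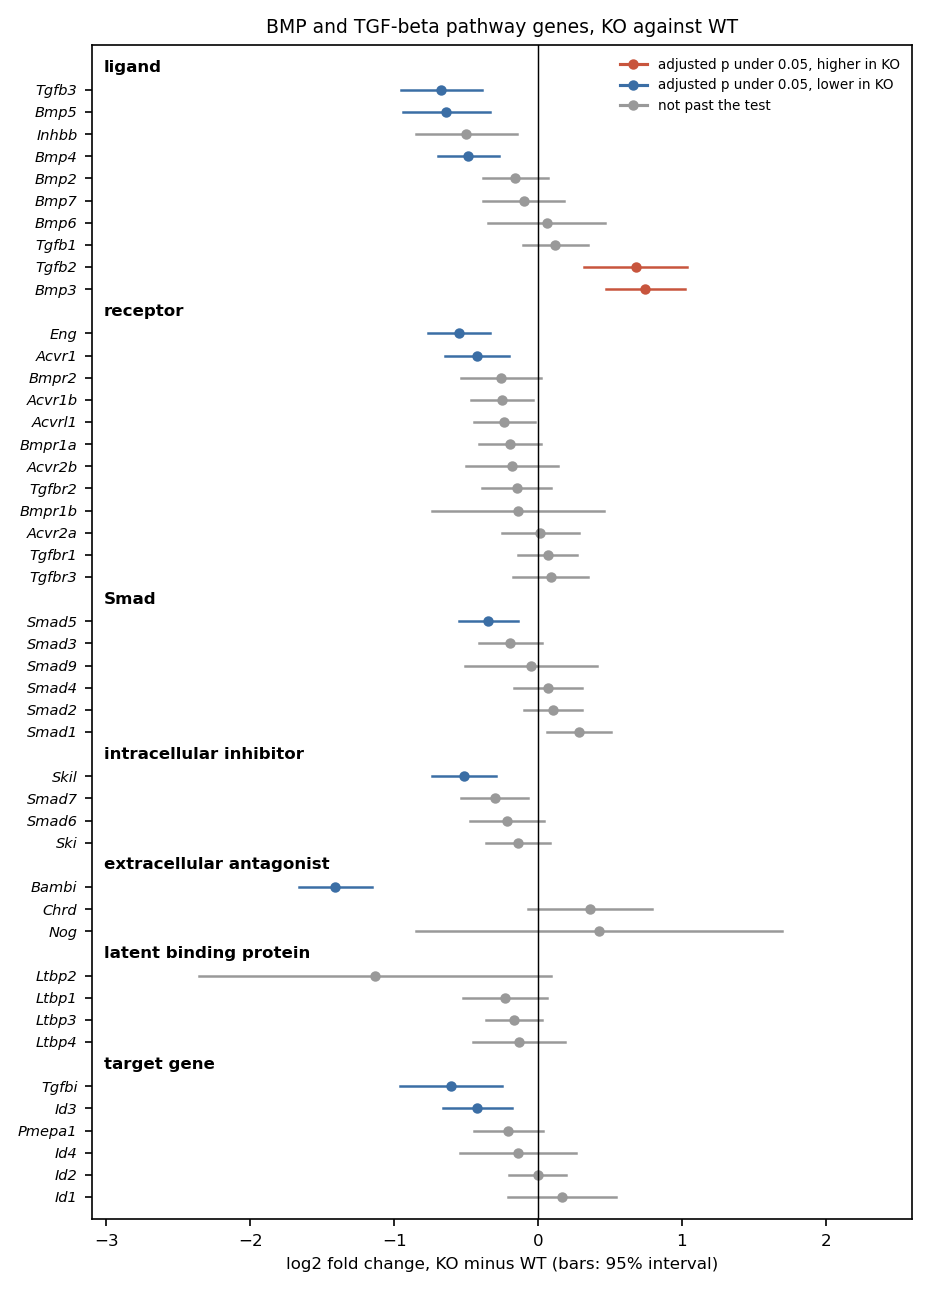
Log2 fold change (knockout minus wild type) of the 45 pathway genes tested, with bars for the 95% interval, grouped by role and coloured where the adjusted p is under 0.05. Most points lie left of 0 by less than 1 log2 unit, and Bambi at -1.41 stands farthest to the left among the genes that passed.

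Ligands moved in both directions, with 2 of 10 tested genes higher, 3 lower and 5 not past the test (50% called, against 19.7% of all genes tested). Bmp3, on chromosome 5 from 98854415 to 98884396 (GRCm38), encodes a BMP that is known to oppose the activity of other BMPs. Its level was 248 and 221 CPM in the wild types and at 439, 401 and 343 CPM in the knockouts. Every knockout was above both wild types, a log2 fold change of 0.75 ± 0.12 (SE; edgeR adjusted p = 0.00318). Bmp4, a signal of the stroma in many organs (chromosome 14, 46383520 to 46390669), was at 92.0 and 103 CPM in the wild types and at 65.8, 70.4 and 72.8 CPM in the knockouts. It fell 1.40-fold with no overlap between genotypes (log2 fold change -0.48 ± 0.10 SE, edgeR adjusted p = 0.00734). Bmp5 (chromosome 9, 75775364 to 75900310), which encodes a ligand closely related to BMP6 and BMP7, was at 137 and 160.4 CPM in the wild types and at 89.5, 83.2 and 114 CPM in the knockouts. Its fall was 1.56-fold (log2 fold change -0.64 ± 0.14 SE, edgeR adjusted p = 0.0103), with KO 3 nearest to the wild types. In the GENCODE vM21 annotation 46.7% of the exon length of Bmp5 is also covered by Gm26903 on the opposite strand. Gm26903 is not among the genes counted here and no source here states whether the counting used strand, so reads of these genes cannot be separated. The remaining BMP genes did not pass. Bmp2 was at 133 and 123 CPM in the wild types and 105 to 125 CPM in the knockouts. Bmp7 was at 175 and 180.0 CPM against 137 to 187 CPM, and Bmp6 at 12.5 and 12.6 CPM against 10.5 to 16.1 CPM. The genotypes overlapped for each of them. Without WT 2 the calls of Bmp4 and Bmp5 were lost (edgeR adjusted p = 0.0544 and 0.0856).

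Of the 3 TGF-beta genes, 1 rose, 1 fell and 1 did not pass. Tgfb1, the form best known from immune control and fibrosis, was at 47.2 and 41.6 CPM in the wild types and at 49.6, 47.997 and 47.3 CPM in the knockouts. These lay just above the wild types, and the difference of 0.12 ± 0.10 log2 units (SE; 95% interval -0.10 to 0.34) did not pass (edgeR adjusted p = 0.428). Tgfb2 (chromosome 1, 186622792 to 186705989) was at 9.77 and 8.43 CPM in the wild types and at 13.5, 16.7 and 13.7 CPM in the knockouts. It rose 1.6001-fold, with all knockouts above both wild types (edgeR adjusted p = 0.0166). Tgfb3 (chromosome 12, 86056745 to 86079041) was at 23.5 and 24.1 CPM in the wild types and at 13.5, 16.0 and 15.4 CPM in the knockouts. This was a 1.59-fold fall without overlap (edgeR adjusted p = 0.00574). In the annotation 12.4% of the exon length of Tgfb3 lies under Gm37804 and Gm48008 on the opposite strand. The call of Tgfb2 went away on leaving out WT 1, WT 2 or KO 2 (0.0803, 0.112 and 0.0573 as edgeR adjusted p) and that of Tgfb3 without WT 1 (0.0545). Of the activin subunit genes, Inhbb was at 10.1 and 10.9 CPM in the wild types and 7.11, 7.82 and 7.397 CPM in the knockouts. Its knockout values were all lower, but the edgeR adjusted p of 0.050003 fell just outside the threshold. Inhbb did pass in several alternative settings that used every library, for example with DESeq2's size factors (edgeR adjusted p = 0.0483), and without KO 3 (0.0400). Inhba had only 3 to 10 counts per library and was not tested.

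**Figure D3:**
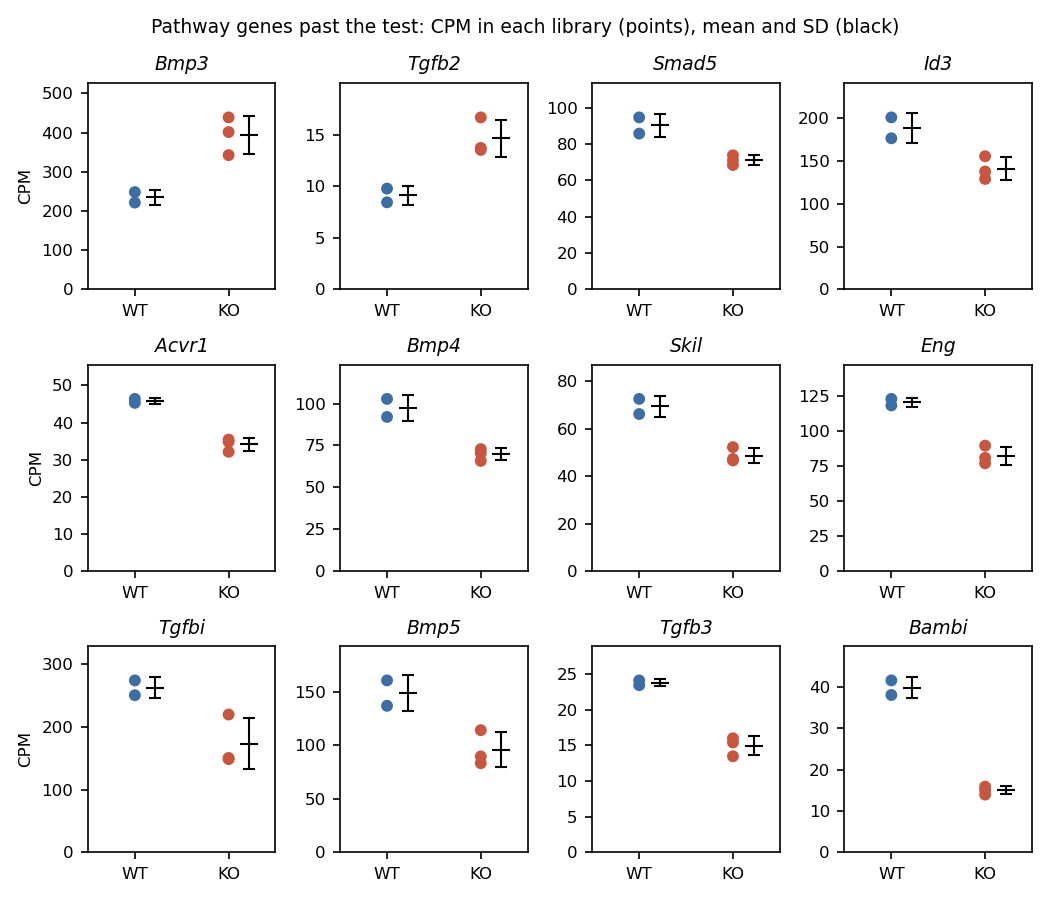
CPM of the 12 pathway genes that passed the test in each library (points), with the mean and SD of each genotype in black and each axis starting at 0. Knockout and wild-type points do not overlap in any of the 12 panels, and in Tgfbi 1 knockout at 219 CPM lies apart from the others at 148 and 150.2 CPM.

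Expressed per exon length, which allows levels to be compared between genes, Bmp7, Bmp4, Bmp5, Bmp2 and Bmp3 lay close together in the wild types, with means of 44.2, 43.3, 36.9, 36.0 and 31.7 CPM per kb. Neighbours in this order overlapped between libraries, apart from Bmp4 with Bmp5 and Bmp2 with Bmp3. In the knockouts Bmp3 came first at 53.3 CPM per kb (59.3, 54.2 and 46.3 by library), followed by Bmp7 at 41.2. Of the summed level of the 6 BMP genes, Bmp3 made up 17.4% and 15.1% in the wild types, against 30.8%, 29.8% and 25.7% in the knockouts. The shares of Bmp4 and Bmp5 were smaller in the knockouts, going from means of 22.2% and 18.9% to 16.8% and 12.9%. The sum itself was 193 and 198 CPM per kb in the wild types and 180.3 to 192 CPM per kb in the knockouts. TGF-beta genes were lower in level, with means of 8.81, 7.03 and 1.57 CPM per kb for Tgfb1, Tgfb3 and Tgfb2 in the wild types. Tgfb3 made up 38.5% and 42.3% of their summed level in the wild types, against 24.6%, 27.6% and 28.0% in the knockouts, while Tgfb2 went from 9.38% and 8.65% to 14.4%, 16.8% and 14.5%. With 2 against 3 libraries an exact permutation test taken in both directions cannot go below p = 0.2, the value reached by each of these shares, so they stand as descriptions. They were chosen after the values of the genes were seen, among 20 shares and sums, and follow from the changes given above. With the longest transcript in place of all merged exons, the mean share of Tgfb3 was 27.0% and 16.97% and that of Tgfb2 6.81% and 10.96% in wild types and knockouts.

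**Figure D4:**
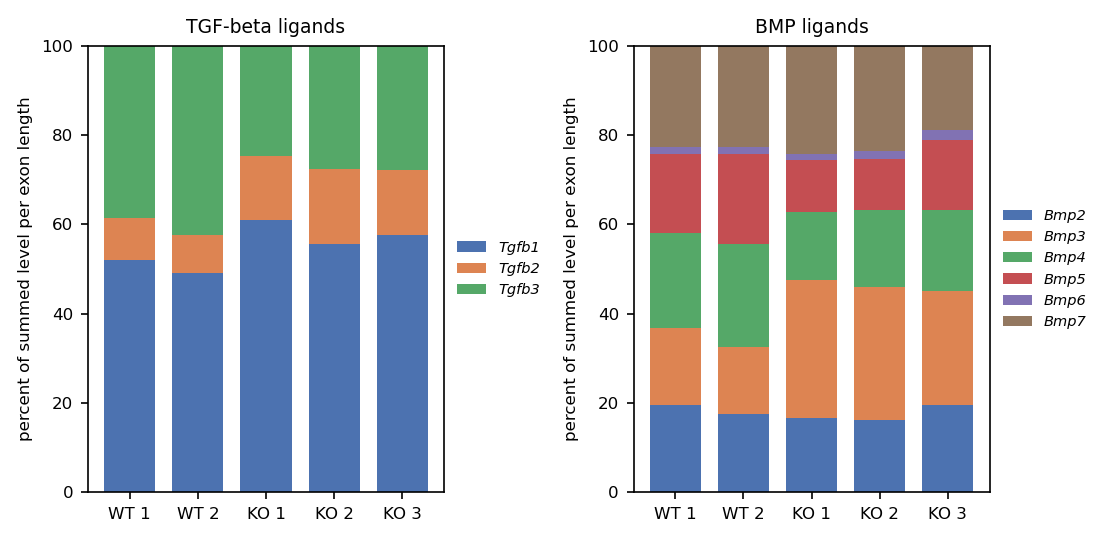
Percent of the summed level per exon length taken by each TGF-beta gene (left) and each BMP gene (right) in each of the 5 libraries. The Tgfb3 and Bmp4 segments are smaller, and the Tgfb2 and Bmp3 segments larger, in all 3 knockouts than in both wild types.

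Because the study removes a step of Notch signalling, the promoters of the pathway genes were searched for the core of the site bound by RBPJ, the DNA-binding partner of Notch, and for Smad elements. RefSeq promoters (GRCm38.p6, from 250 bases before to 50 after each start site) were found for 33 of the 48 genes, in 41 windows. The RBPJ core, TGGGAA on either strand, occurred in 8 of the 41 windows (19.5%) and in 25.6% of all 32851 promoters of this length. Among the 8 genes that passed the test and had a RefSeq promoter here, Bmp5 and Smad5 held it. Bambi, Bmp3, Skil and Tgfb3 also passed the test but had no such promoter, so they were not searched. The palindromic Smad site GTCTAGAC occurred in 1 window, that of the inhibitor gene Smad6, and in 0.213% of all promoters. The GC-rich BMP element TGGCGCC on either strand occurred in 2 windows (4.88%), those of Ski and Smad9, and in 4.03% of all promoters. Each window shown holds 1 of the 3 motifs, so none overlap. These matches describe letters in a window and not binding. The 3 windows are printed to show where the matches lie, in lower case with the matched motif in capitals. The Bmp5 window (chr9:75775115-75775414, plus strand) carries the RBPJ core as its reverse complement, starting 23 bases before the start site, and the Smad5 window (chr13:56703418-56703717, plus strand) carries it in 1 of its 3 windows, 221 bases before the start site. The Smad6 window (chr9:64022010-64022309, minus strand) holds the palindrome across the start site, its first base lying 4 bases before that site.
Bmp5: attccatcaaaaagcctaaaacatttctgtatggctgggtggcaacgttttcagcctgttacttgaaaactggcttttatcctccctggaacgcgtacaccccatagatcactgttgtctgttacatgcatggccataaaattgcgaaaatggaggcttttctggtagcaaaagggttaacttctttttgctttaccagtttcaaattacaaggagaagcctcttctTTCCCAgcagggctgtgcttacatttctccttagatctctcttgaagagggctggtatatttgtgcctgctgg
Smad5: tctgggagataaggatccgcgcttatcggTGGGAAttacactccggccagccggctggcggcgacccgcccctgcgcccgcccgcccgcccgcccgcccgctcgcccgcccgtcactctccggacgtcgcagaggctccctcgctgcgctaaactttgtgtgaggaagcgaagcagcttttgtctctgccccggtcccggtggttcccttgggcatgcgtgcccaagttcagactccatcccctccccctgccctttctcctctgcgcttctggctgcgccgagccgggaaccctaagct
Smad6: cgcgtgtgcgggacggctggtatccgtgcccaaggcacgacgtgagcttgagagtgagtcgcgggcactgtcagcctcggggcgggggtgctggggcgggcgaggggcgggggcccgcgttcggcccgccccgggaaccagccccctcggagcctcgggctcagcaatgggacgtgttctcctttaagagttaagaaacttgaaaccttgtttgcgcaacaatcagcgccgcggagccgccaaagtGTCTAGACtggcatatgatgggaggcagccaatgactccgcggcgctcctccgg

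None of the 12 receptor genes rose, 2 fell and 10 did not pass the test (16.7% called, below the 19.7% of all genes tested). Eng (chromosome 2, 32646595 to 32682669) encodes endoglin, a co-receptor for BMPs and TGF-betas that is abundant on blood vessels. It was at 123 and 118 CPM in the wild types and at 76.9, 89.6 and 80.8 CPM in the knockouts. The fall was 1.46-fold with no overlap (log2 fold change -0.55 ± 0.10 SE, edgeR adjusted p = 0.00424). The endothelial marker sum was lower in every knockout too, as given above. Acvrl1, a type I receptor gene that is likewise strongest in endothelium, was at 93.6 and 85.1 CPM in the wild types and at 74.9, 80.8 and 72.3 CPM in the knockouts, and its difference of -0.23 did not pass (95% interval -0.45 to -0.02, edgeR adjusted p = 0.113).

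Acvr1 (chromosome 2, 58388644 to 58567157) encodes a type I receptor for BMPs. It was at 46.4 and 45.3 CPM in the wild types and at 35.4, 32.1 and 34.8 CPM in the knockouts, a 1.34-fold fall without overlap (edgeR adjusted p = 0.0154). That call was lost without WT 1 (edgeR adjusted p = 0.1104) and without WT 2 (0.0596). The other type I BMP receptor genes did not pass. Bmpr1a was at 156 and 141 CPM in the wild types and 123 to 138 CPM in the knockouts, all lower (edgeR adjusted p = 0.182), and Bmpr1b was low, at 3.45 and 4.11 CPM against 2.77 to 4.36 CPM. The activin receptor gene Acvr1b had 146 and 143 CPM in the wild types and 113, 119 and 132 CPM in the knockouts, all lower. It missed the threshold (log2 fold change -0.25, edgeR adjusted p = 0.0947). Acvr1b met the threshold without KO 3 (edgeR adjusted p = 0.0333). It also did with a replicate block (edgeR adjusted p = 0.0382), in which KO 3 has no partner and does not enter the genotype difference. Among the type II receptors, Bmpr2 was at 172 and 134 CPM against 120.4 to 143 CPM, Acvr2a at 34.1 and 29.2 CPM against 30.4 to 35.1 CPM, and Acvr2b at 33.8 and 27.8 CPM against 24.4 to 32.1 CPM, all with overlapping genotypes. The TGF-beta receptor pair showed small differences, with 95% intervals of -0.14 to 0.27 log2 units for Tgfbr1 (61.5 and 59.2 CPM in wild types, 61.3 to 66.2 CPM in knockouts) and -0.39 to 0.09 for Tgfbr2 (221 and 201 CPM, 171 to 207 CPM). Tgfbr3, the betaglycan co-receptor gene, was at 98.3 and 75.6 CPM against 88.8 to 95.6 CPM. For every receptor that did not pass, Bmpr1b excepted, the 95% interval lay within 1.5-fold in either direction.

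Of the 6 Smad genes, 1 was lower and 5 did not pass the test (16.7% called, below the 19.7% of all genes tested). In 4 of them (66.7%, against 51.0% of all genes tested) the genotypes did not overlap, with knockouts above in 2 and below in 2. Smad5 (chromosome 13, 56703010 to 56742377), a carrier of BMP signals, was at 94.6 and 85.7 CPM in the wild types and at 71.0, 68.4 and 73.8 CPM in the knockouts. It fell 1.27-fold (edgeR adjusted p = 0.0277), a call that was lost without WT 1, KO 1 or KO 2 (0.186, 0.0814 and 0.0913). Its relative Smad1 lay in the opposite direction, at 38.2 and 36.9 CPM in the wild types and 48.03, 42.8 and 46.4 CPM in the knockouts, but missed the threshold (log2 fold change 0.29 ± 0.10 SE, edgeR adjusted p = 0.0741). Smad9, the third BMP carrier, was at 9.66 and 7.67 CPM against 6.93 to 10.3 CPM. Per exon length, Smad5 made up 61.7% and 61.2% of these 3 genes' summed level in the wild types, against 51.7%, 51.3% and 52.7% in the knockouts. Smad2 was at 171 and 161 CPM in the wild types and 173 to 184 CPM in the knockouts, all higher. Smad3 was at 155 and 138 CPM against 121 to 136 CPM, all lower. The common partner Smad4 was at 72.03 and 60.5 CPM against 66.6 to 73.7 CPM, with overlap. Smad2, Smad3 and Smad4 did not pass, and their 95% intervals lay within 1.5-fold.

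All 4 genes of intracellular inhibitors had negative log2 fold changes, of which 1 passed (25% called, against 19.7% of all genes tested). Skil (chromosome 3, 31095058 to 31122577) encodes SnoN, a corepressor that holds Smad complexes inactive and is itself a TGF-beta target. It was at 72.6 and 66.2 CPM in the wild types and at 47.2, 46.6 and 52.2 CPM in the knockouts. The fall was 1.43-fold without overlap (edgeR adjusted p = 0.00657) and did not pass without WT 1 (0.0772). Its relative Ski was at 188 and 163 CPM against 151 to 169 CPM (edgeR adjusted p = 0.360). The inhibitory Smads are feedback genes of both arms of the pathway. Smad7 was at 34.3 and 32.6 CPM in the wild types and 28.6, 26.7 and 25.9 CPM in the knockouts, and Smad6 at 27.3 and 30.9 CPM against 25.3, 23.3 and 26.6 CPM. In both the knockouts lay below the wild types, and neither passed (edgeR adjusted p = 0.0709 and 0.219), although Smad7 did with upper-quartile scaling and with a filter at 5 CPM (0.0454 and 0.0419).

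Bambi, on chromosome 18 from 3507923 to 3516404, gave the largest change among the 12 of the 48 genes that passed. It encodes a membrane protein that resembles a type I receptor without the kinase and so blocks BMP, activin and TGF-beta receptors. Its values were 38.0 and 41.5 CPM in the wild types and 15.1, 14.0 and 15.9 CPM in the knockouts. The groups were far apart relative to their spread, at 39.8 ± 2.49 CPM (SD, n = 2) and 14.98 ± 0.970 CPM (SD, n = 3), a log2 fold change of -1.41 ± 0.11 (SE; edgeR adjusted p = 5.67e-05). With each library left out in turn the log2 fold change of Bambi stayed between -1.48 and -1.36 and its edgeR adjusted p was at most 0.00305. The secreted BMP antagonists were scarce in these libraries. Chrd, which encodes chordin, was at 7.16 and 6.69 CPM in the wild types and 7.64, 10.6 and 8.56 CPM in the knockouts (edgeR adjusted p = 0.209), and Nog, which encodes noggin, stayed under 1 CPM in every library. Fst, the follistatin gene, had 3 to 13 counts per library, and Grem1, the gremlin gene, had 2 counts in KO 3 and 0 in the others, where 3 counts would be 0.113 to 0.209 CPM. These last were not tested.

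Latent TGF-beta binding proteins are a family of which some members, but not all, tie newly made TGF-beta to the matrix until it is released. None of the 4 genes passed, where 19.7% of all genes tested did, and all had negative log2 fold changes. Ltbp4 was the most abundant, at 612 and 536 CPM in the wild types and at 428, 549 and 598 CPM in the knockouts, with overlap between genotypes (edgeR adjusted p = 0.557). Ltbp3 was at 180.2 and 174 CPM in the wild types and 154, 157 and 162 CPM in the knockouts, all lower, and its 95% interval ran from -0.36 to 0.03 log2 units (edgeR adjusted p = 0.203). Ltbp1 was at 25.2 and 22.03 CPM against 18.1 to 22.3 CPM. Ltbp2, with 1.31 and 0.627 CPM in the wild types and 0.156 to 0.602 CPM in the knockouts, was too low for a firm comparison (95% interval -2.36 to 0.09).

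Target genes gave a mixed picture, with 2 of 6 lower and 4 not past the test (33.3% called, against 19.7% of all genes tested). The Id genes encode small proteins that block basic helix-loop-helix factors and are the standard readout of BMP signals. Id1 was at 199 and 243 CPM in the wild types and at 263, 292 and 188 CPM in the knockouts. KO 3 lay below both wild types and the other knockouts above them (log2 fold change 0.17 ± 0.17 SE, edgeR adjusted p = 0.520). With a replicate block, in a design whose labels do not pair the mice, the value for Id1 was 0.33 and passed (edgeR adjusted p = 0.0330). Id2 was nearly identical in all 5 libraries, from 192 to 197 CPM, with a 95% interval of -0.20 to 0.19 log2 units. Id3 (chromosome 4, 136143497 to 136145755) was at 177 and 201 CPM in the wild types and at 138, 156 and 129 CPM in the knockouts. It was the Id gene that fell, 1.34-fold (edgeR adjusted p = 0.0225), a call that was lost without WT 1, WT 2 or KO 1 (0.0602, 0.117 and 0.0717). Id4 was low, at 9.30 and 9.48 CPM against 7.16 to 9.94 CPM. The summed level of the 4 Id genes per exon length was 351 and 405 CPM per kb in the wild types and 385, 419.5 and 317 CPM per kb in the knockouts, fully overlapping.

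Tgfbi (chromosome 13, 56609523 to 56639562) encodes a secreted matrix protein that TGF-beta induces. It was at 274 and 249.95 CPM in the wild types and at 148, 150.2 and 219 CPM in the knockouts. The 1.52-fold fall passed (log2 fold change -0.60 ± 0.16 SE, edgeR adjusted p = 0.0255), with KO 3 well above the other knockouts. Leaving out WT 1, WT 2, KO 1 or KO 2 removed the call (edgeR adjusted p = 0.181, 0.0811, 0.0795 and 0.0782). Pmepa1, a TGF-beta target whose product limits the signal, was at 107 and 96.7 CPM in the wild types and 94.2, 78.3 and 92.7 CPM in the knockouts, all lower, and did not pass (edgeR adjusted p = 0.204).

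**Figure D5:**
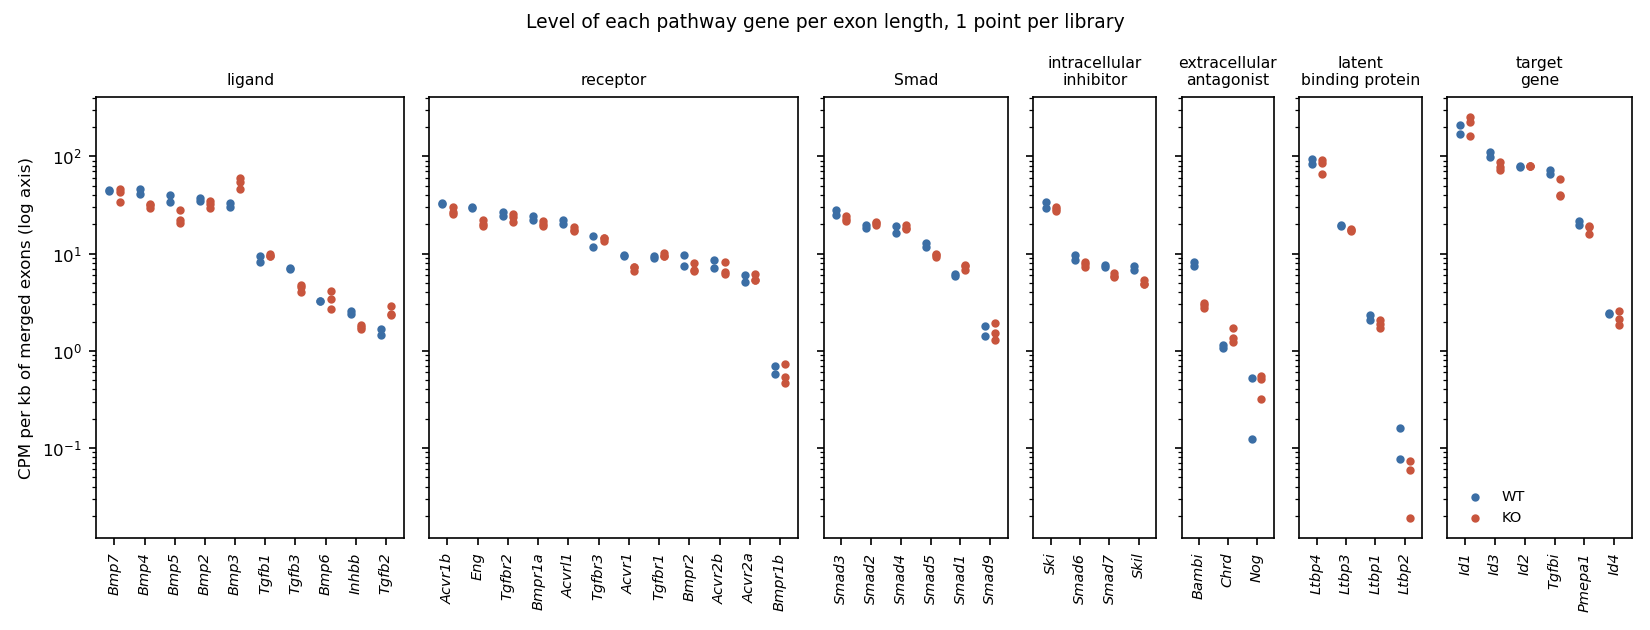
Level of each of the 45 tested pathway genes in CPM per kb of merged exons (log axis), with 1 point per library, blue for wild types and red for knockouts, ordered within each role by the wild-type mean. Id1 reaches the highest level, the secreted antagonists Chrd and Nog are among the lowest, and the Bambi points of the genotypes stand apart.

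The rest of the pathway was read from a list of 108 further genes, of which 80 passed the low-count filter. Of these 10 rose (12.5%), 16 fell (20%) and 54 did not pass, with a median log2 fold change of -0.12. The share called was 32.5%, against 19.7% of all genes tested, 9.64% upward and 10.0% downward. The numbers that rose and fell were 4 and 4 without WT 1, 4 and 13 without WT 2, 6 and 10 without KO 1 and 6 and 12 without KO 2. Of 14 genes that act on latency and activation of ligands, 3 rose and 6 fell (64.3% called). Thbs1, whose product thrombospondin can activate latent TGF-beta, rose from 141 and 154 CPM in the wild types to 462, 466 and 342 CPM in the knockouts (edgeR adjusted p = 0.000183). Itgb8, an integrin gene of the same process, was low and fell from 2.14 and 1.39 CPM to 0.339, 0.120 and 0.389 CPM (edgeR adjusted p = 0.00511). Bmp1, which encodes a protease that cleaves procollagens and chordin and is no BMP ligand, fell 1.49-fold (edgeR adjusted p = 0.00702). The last 2 calls were lost without WT 1 (edgeR adjusted p = 0.117 and 0.0814).

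Among 11 further antagonist genes tested, 4 fell and none rose (36.4% called). They included the follistatin-like gene Fstl1, from 271 and 277 CPM in the wild types to 145, 162 and 147 CPM in the knockouts (edgeR adjusted p = 0.000382), and the protease gene Htra1, from 332 and 359 CPM to 164, 165 and 202 CPM (edgeR adjusted p = 0.000560). Further targets split, with 5 higher and 3 lower of 18 (44.4% called). Ctgf, which encodes a matrix protein induced by TGF-beta and by YAP, was at 14.1 and 20.6 CPM in the wild types and 103, 107 and 75.7 CPM in the knockouts, 5.53-fold higher (edgeR adjusted p = 5.00e-05). Cyr61, its relative, was uneven in the wild types at 5.17 and 27.1 CPM and reached 146, 144 and 79.5 CPM in the knockouts (edgeR adjusted p = 0.00411), and did not pass in a robust fit (0.122). The BMP target Msx2 rose from 69.7 and 70.1 CPM to 106, 102 and 101 CPM (edgeR adjusted p = 0.00253). Ldlrad4, a TGF-beta target that restrains Smad activation, fell from 11.8 and 10.2 CPM to 3.12, 4.75 and 5.37 CPM (edgeR adjusted p = 0.00368), a call lost without WT 1 (0.0681). Hey1, a target of both Notch and BMP signals, fell from 13.4 CPM in each wild type to 3.84, 4.15 and 5.14 CPM (edgeR adjusted p = 0.000389). Targets of 1 arm of the pathway therefore moved in both directions, Msx2 up and Id3 down for BMP, Ctgf up and Tgfbi down for TGF-beta. Of 25 further intracellular regulators, 2 rose and 1 fell (12% called, below the 19.7% of all genes tested).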

How the data were processed

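Gene counts from 5 libraries of dissected mouse urothelium, 1 per animal, were used as deposited by the authors: raw read counts per gene symbol. By the submitters' processing notes the tools were HISAT2 2.1.0 for build mm10, with HTSeq 0.11.1 and also DESeq2 named; no source here gives the annotation, strand setting or filters. The kit named in the labels' protocols is Illumina TruSeq RNA. Gene entries held 49.3% to 60.6% of all tallied reads, and the 5 summary entries for the remainder did not enter library sizes or tests.

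The low-count filter was filterByExpr (count 10, total 15). Libraries were scaled with TMM and tested with the edgeR quasi-likelihood test over all 14779 genes, p-values being adjusted by Benjamini-Hochberg and called under 0.05. SE values follow from the fitted log2 fold change and its F statistic. Levels per kb use merged exons of the GRCm38 annotation GENCODE vM21, in which all 48 symbols were found and which may differ from the annotation the authors counted on. Summed over all genes, counts varied 9.26 to 36.3 times as much between replicates as counting error gives (chi-square per degree of freedom), so no libraries were merged. That sum includes Rn45s and is weighted toward abundant genes, so it does not give the spread of a typical gene. The software was edgeR 4.0.16 in R 4.3.3, besides DESeq2 1.42.0 and limma 3.58.1 for alternatives. The test was also checked on counts simulated with a single dispersion for all genes, where recovery was required only for the largest planted changes.

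The pathway genes, gene lists and motifs were chosen with earlier results of these data known. Every pathway gene is named; other pathway genes are named from those that passed, smallest p first. Alternatives were DESeq2, limma-voom, other scaling and filters, a replicate block, a robust fit, leaving out ribosomal and nuclear RNA entries or each library, and another gene length.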

Additional observations from a re-analysis of the deposited data

How the results depend on the processing

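The 12 calls among the pathway genes kept their direction and stayed past the threshold in all 10 alternatives that left out no library, the replicate block among them. With 1 library left out, 19 of 60 such values no longer passed and none changed sign, and Bambi, Bmp3 and Eng passed throughout. Leaving out each library in turn gave 1 to 2 pathway genes higher and 4 to 12 lower, 4 to 13 other pathway genes higher and 4 to 22 lower, and 340 to 1743 of all genes higher and 375 to 2246 lower. Where a wild type was left out, the lone wild type was assumed to vary like the knockouts. The labels do not say that equal numbers mark a shared litter or day, and deviations of same-numbered libraries correlated at -0.10 (number 1) and 0.09 (number 2) across genes. With 2 wild types the deviations of WT 2 mirror those of WT 1, so these are not separate checks. KO 3, which has no partner, correlated at 0.14 with WT 1. In the replicate block number 3 holds KO 3 alone, so KO 3 does not enter the genotype difference there. With this block 3 pathway genes were higher (Id1 gained) and 12 lower (Inhbb and Acvr1b gained), and 2211 of all genes were higher and 2426 lower. The cause of these gains was not tested. Signs reversed only in genes that did not pass. Leaving out libraries in turn gave log2 fold changes of -0.11 to 0.13 for Acvr2a (negative without WT 2, -0.11, and KO 1, -0.061), -0.11 to 0.22 for Bmp6 (negative without KO 3), -0.20 to 0.0032 for Bmp7 (positive without KO 3), -0.23 to 0.13 for Smad9 (positive without WT 1, 0.13, and KO 1, 0.090), and, negative without WT 2, -0.10 to 0.29 for Tgfbr3, -0.066 to 0.20 for Smad4 and -0.20 to 1.86 for Nog. The others were Acvr2a with upper-quartile factors (-0.026), library totals (-0.0059) and a filter at 5 CPM (-0.033), Id2 with no filter (0.0035), and Bmp6 (-0.10) and Bmp7 (0.018) with the block. With the longest transcript as gene length, 26 of 45 levels per kb moved by more than the spread between wild types, and 9 of the 10 highest pathway genes were the same.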
